A study of Mus musculus with 4 samples.

Results

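The genes described here handle heme and the iron it releases. They are Hmox1 (heme oxygenase), Slc48a1 and Abcb6 (transporters of heme and porphyrins), and Fth1 and Ftl1 (the heavy and light chains of ferritin). They were taken by name from the 1940 genes of the table, so that all 5 have a row follows from the choice. Their values were not part of the rule, but earlier results of these data were known when they were chosen. ChIP-seq, in which an antibody against Nrf2 pulls down chromatin for sequencing, had been run on flash-frozen esophagus from C57BL/6 mice. The 3 genotypes were wild-type, Nrf2KO (Nrf2 knocked out) and Keap1KO (Keap1 knocked out), with 1 ChIP library each. A pooled input library was not analysed here. The sources used here do not give the knockout alleles, the age of the mice or the number of animals behind a library.

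Nrf2, encoded by Nfe2l2, pairs with small Maf proteins on antioxidant response elements, and Keap1 is the adaptor that sends it to degradation. Heme oxygenase opens the heme ring and releases iron, biliverdin and carbon monoxide. Ferritin is a shell of heavy and light chains, in which the heavy chain oxidises iron and the light chain aids the formation of the mineral core. Slc48a1 (also called HRG1) carries heme out of the endosome and lysosome, and Abcb6 is an ATP-driven porphyrin transporter. These genes are known targets of Nrf2 or of its competitor Bach1, a repressor that falls off DNA when it binds heme.

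Values are average peak heights per gene, a signal with no stated unit, over the active regions (merged called intervals) of the gene. Over the 1940 genes wild-type had a median of 5.50, Nrf2KO of 5 and Keap1KO of 18.0. The sources used here state neither the sequencing depth nor a scaling of the libraries. With 1 library per genotype there is no replicate spread and no test, so every ratio below compares single libraries, and differences in depth and in genotype cannot be told apart. In whole tissue, a change in the share of responding cells and a change in binding per cell cannot be told apart either. Peak heights are no measure of expression, and the labelled tissue could not be checked against marker genes.

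All 5 genes carried an interval called in Keap1KO, and 0 carried one called in wild-type or in Nrf2KO. Among all genes, 99.1% had an interval called in Keap1KO, 4.18% had one called in wild-type and 0.0% had one called in Nrf2KO. The Keap1KO calls at the 5 genes are thus what put them in the table, as at nearly all genes. A Keap1KO excess over the other libraries is therefore partly built in by this selection, at the 5 genes and over all genes. The genes held 7 intervals, of which 4 lay upstream of the gene and 3 inside it. Of all 2333 listings of an interval under a gene, 29.2% were upstream, 51.0% were inside and 19.8% were downstream.

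The Hmox1 intervals were both upstream of the gene. Hmox1 (GeneID 15368) runs from 75093618 to 75100593 on the plus strand of chromosome 8 in mm10. Its intervals lay 9698 bp and 3954 bp before the start, at positions 75083920 and 75089664. Mouse Hmox1 is known for a pair of distal upstream enhancers with repeated Maf recognition elements. An upstream interval at least 9 kb away was listed for 41 of the 1940 genes (2.11%). Hmox1 was the only one of the 5 genes that shared no interval with a listed neighbour. An unshared interval is the common case, since 73.9% of all 1727 intervals were listed under 1 gene only.

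Each ferritin gene had an interval close to its start. Ftl1 (GeneID 14325, chromosome 7, 45457944 to 45459886, minus strand) had a single interval 1106 bp upstream, at position 45460992. That interval was also listed downstream of Gys1, a muscle-type glycogen synthase, and of Bax, a pro-apoptotic protein whose start is 5906 bp from it. Fth1 (GeneID 14319, chromosome 19, 9982703 to 9985092, plus strand) had an interval 4207 bp upstream, at position 9978496, and one 769 bp inside the gene, at position 9983472. RefSeq lists an additional Fth1 start farther upstream, and from that gene boundary (9980600) the first interval is 2104 bp away. Both Fth1 intervals were also listed downstream of Best1, a chloride channel gene, at least 18161 bp from its start. RefSeq lists ferritin pseudogenes for both chains (Ftl1-ps1, Ftl1-ps2, Ftl2-ps, Fth-ps2 and Fth-ps3). How reads that match several places were handled is not given in the sources used here, so the interval inside Fth1 is uncertain in that respect.

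The transporter intervals lay inside their genes. Slc48a1 (GeneID 67739, chromosome 15, 97784365 to 97792692, plus strand) had an interval 2483 bp from its start, at position 97786848. It was also listed downstream of Hdac7, a histone deacetylase gene whose start is 57654 bp away. Abcb6 (GeneID 74104, chromosome 1, 75171640 to 75180283, minus strand) had an interval 891 bp from its start, at position 75179392. It was also listed downstream of Zfand2b and of the autophagy gene Atg9a, whose starts are 10746 bp and 12531 bp away. An interval within 1 kb of the start was listed for 26.8% of all genes, and Abcb6 and Fth1 were among them. Whether the intervals inside genes fall in exons or introns is not stated in the table and not known here.

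**Figure D1:**
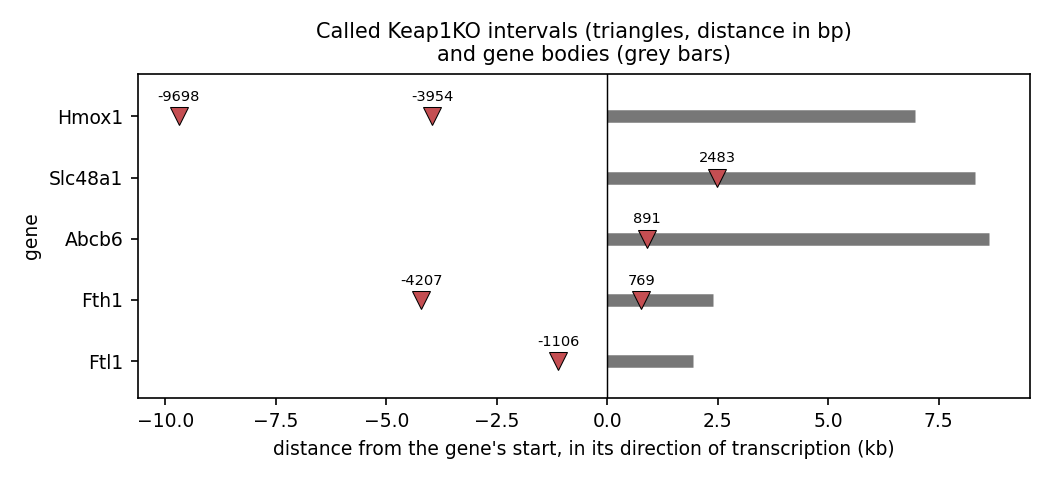
Called Keap1KO intervals (red triangles, with the distance in bp) and the gene bodies (grey bars) of the 5 genes, drawn by distance from the start of each gene in its direction of transcription (kb). Hmox1 has both intervals upstream, at 9698 and 3954 bp, Ftl1 has one upstream, at 1106 bp, and those of Slc48a1 and Abcb6 lie inside the gene. Fth1 has one upstream, at 4207 bp, and one inside the gene, at 769 bp.

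None of the 7 intervals fell in a promoter window of these genes. RefSeq promoter entries (GRCm38.p6, from 250 bases before to 50 after a start) matched 3 of the 5 genes by identifier, with 4 windows, since Fth1 has 2 starts; Hmox1 and Slc48a1 had none. The windows shown are those nearest to the Ftl1 interval, the Abcb6 interval and the interval inside Fth1, because each lies beside that gene start. The upstream Fth1 interval is nearest to the window at the other Fth1 start, 1854 bp from it, which is not printed. For Abcb6 and the printed Fth1 window, the RefSeq starts (75180392 and 9982646) differ from those used for the distances above. From these RefSeq starts the Abcb6 interval is 1000 bp away, not 891 bp, and the interval inside Fth1 826 bp, not 769 bp. Only the 250 bases before each start are printed, 5′ to 3′ in the direction of the gene, with the letters CCAAT (or ATTGG on the other strand) in capitals. CCAAT is the core bound by NF-Y, a general promoter factor, and was looked for after these windows had been read.
Ftl1, chr7:45459887-45460136, minus strand: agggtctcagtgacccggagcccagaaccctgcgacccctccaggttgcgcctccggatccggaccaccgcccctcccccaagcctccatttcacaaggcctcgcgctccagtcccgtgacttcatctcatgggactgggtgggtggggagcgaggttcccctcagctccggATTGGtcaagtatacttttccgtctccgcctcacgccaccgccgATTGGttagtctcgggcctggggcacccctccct
Fth1, chr19:9982396-9982645, plus strand: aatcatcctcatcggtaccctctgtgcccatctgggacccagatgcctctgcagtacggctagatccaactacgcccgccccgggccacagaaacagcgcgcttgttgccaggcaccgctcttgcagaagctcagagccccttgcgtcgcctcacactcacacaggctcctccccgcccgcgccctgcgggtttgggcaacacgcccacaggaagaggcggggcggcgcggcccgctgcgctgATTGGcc
Abcb6, chr1:75180393-75180642, minus strand: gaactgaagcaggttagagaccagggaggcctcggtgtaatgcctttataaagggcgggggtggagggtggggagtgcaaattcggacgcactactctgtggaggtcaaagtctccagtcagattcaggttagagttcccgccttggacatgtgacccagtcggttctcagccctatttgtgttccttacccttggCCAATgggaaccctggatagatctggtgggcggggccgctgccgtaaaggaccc

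The antioxidant response element core was searched as TGACNNNGC on both strands, and 0 of the 4 windows held it, against 12.4% of the 32851 RefSeq promoter windows of 300 bases. The AP-1 element TGANTCA, which can overlap that core, was in 0 of the 4 and in 7.81% of all. The looser letters TGANNNNGC, which every core match also meets, were in 0 of the 4 and in 41.3% of all. With only 4 windows, and no interval of these genes inside them, nothing is read from these counts of 0. Where a window held the position of a listed interval, as 168 windows did over the whole table, 38.7% had the core, 20.8% the AP-1 element and 58.3% the looser letters. CCAAT was found at 2 places in the Ftl1 window and at 1 in each of the printed Fth1 and Abcb6 windows, and 33.8% of all windows had it in the same 250 bases. The window at the upstream Fth1 start had 0. These matches are descriptions of letters, and the bases under the intervals themselves were not analysed here.

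Ftl1 was the tallest of these genes in Keap1KO and in wild-type. It stood at 20 in wild-type and 118 in Keap1KO, with 7 in Nrf2KO. Only 4 of the 1940 genes were higher in Keap1KO, and 12 were higher in wild-type. Keap1KO was 5.67-fold above wild-type (log2 ratio 2.50), wild-type 2.62-fold above Nrf2KO (1.39) and Keap1KO 14.9-fold above Nrf2KO (3.89). Folds and log2 ratios here and below are of height + 1, and this added 1 makes them smaller than the plain ratios, most of all at low heights.

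Ftl1 had no wild-type call despite its height there. Genes called in wild-type had wild-type heights from 6.50 to 32.0 (median 13.0 over 81 genes), so the median called gene was lower than Ftl1. Of the 18 genes at 20 or more in wild-type, 14 were called there (77.8%). The other 4 were Ftl1, Gys1 and Bax, all listed with the same interval, and Cbr3, a carbonyl reductase gene with 20 in wild-type and 81 in Keap1KO, against 9 in Nrf2KO. No gene without a wild-type call was higher in wild-type than these.

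Fth1, the other ferritin chain, was the lowest of the 5 genes in Keap1KO. Its means over 2 regions were 7.50 (wild-type), 6.50 (Nrf2KO) and 21.0 (Keap1KO). In Keap1KO 634 genes were higher. Keap1KO was 2.59-fold above wild-type (log2 ratio 1.37) and 2.93-fold above Nrf2KO (1.55), and wild-type was 1.13-fold above Nrf2KO (0.18). The table also gives the highest peak of a gene, which was 31 in Keap1KO, so the remaining Fth1 region stood at 11. Which of the 2 intervals is the higher one is not given. So even the taller Fth1 region was well below the Ftl1 height of 118, and the 2 chains lay close together only in Nrf2KO, at 6.50 and 7.

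Hmox1 had the lowest Nrf2KO height of the 5 genes. Averaged over its 2 regions, the Nrf2KO height was 3.00, the wild-type height 11.5 and the Keap1KO height 39.5. In Nrf2KO 1328 of the 1940 genes were higher, whereas 115 were higher in wild-type and 137 in Keap1KO. Wild-type was 3.12-fold above Nrf2KO (log2 ratio 1.64), more than at the other 4 genes. Keap1KO was 3.24-fold above wild-type (1.70) and 10.1-fold above Nrf2KO (3.34). Its regions in Keap1KO were 49 and 30 in height, each above the median gene.

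Slc48a1 and Abcb6 were high in Keap1KO and also among the higher genes in Nrf2KO. Slc48a1 stood at 46 in Keap1KO and 11 in wild-type, with 10 in Nrf2KO. Abcb6 stood at 35 in Keap1KO and 7 in wild-type, with 9 in Nrf2KO. In Nrf2KO only 125 genes were higher than Slc48a1 and 220 higher than Abcb6. No gene had an interval called in Nrf2KO, where Nrf2 is knocked out, so heights there are not read as Nrf2 binding. Keap1KO over wild-type was 3.92-fold at Slc48a1 (log2 ratio 1.97) and 4.50-fold at Abcb6 (2.17). Over Nrf2KO it was 4.27-fold (2.10) and 3.60-fold (1.85). Wild-type and Nrf2KO lay close together at both, with log2 ratios of 0.13 at Slc48a1 and −0.32 at Abcb6, so that Abcb6 was lower in wild-type than in Nrf2KO.

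**Figure D2:**
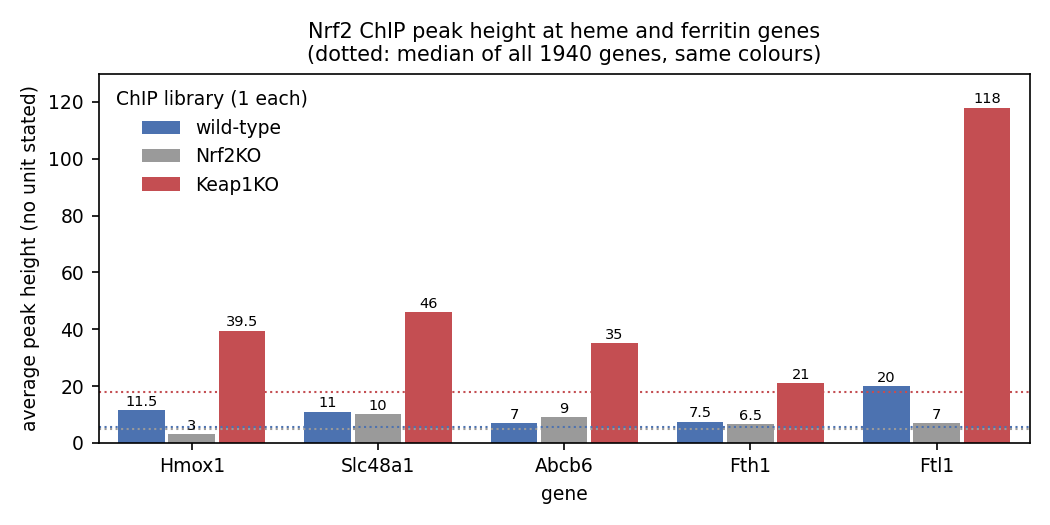
Average peak height (no unit stated) of the 5 genes in the wild-type (blue), Nrf2KO (grey) and Keap1KO (red) libraries, with 1 library each and no error bars; dotted lines are the medians of all 1940 genes. Keap1KO is highest at every gene, from 21 at Fth1 to 118 at Ftl1, and wild-type stands clear of Nrf2KO at Hmox1 and Ftl1. The genes were listed through Keap1KO calls, so a Keap1KO excess is partly built in.

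The order of the genes changed between libraries. From highest to lowest it was Ftl1, Hmox1, Slc48a1, Fth1 and Abcb6 in wild-type, and Ftl1, Slc48a1, Hmox1, Abcb6 and Fth1 in Keap1KO. In Nrf2KO it was Slc48a1, Abcb6, Ftl1, Fth1 and Hmox1. Without replicates no neighbours in these orders can be said to differ, and in wild-type Hmox1 and Slc48a1 were 11.5 and 11, Fth1 and Abcb6 7.50 and 7. Hmox1 and Fth1 are means over 2 regions, which 10.2% of all genes had. Among those 198 genes, 14 were higher than Hmox1 and 89 higher than Fth1 in Keap1KO.

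All 5 genes were at least 2-fold higher in Keap1KO than in wild-type, a rule met by 86.4% of all genes, so this count is close to the background. Count and share both carry the selection of genes by Keap1KO calls. The median log2 ratio of the 5 was 1.97, against 1.70 over all genes. Ftl1 stood at percentile 86.7 of all genes, Abcb6 at 75.1, Slc48a1 at 65.7, Hmox1 at 49.2 and Fth1 at 31.3. Relative to the median gene, Ftl1 was 0.80 higher on the log2 scale, Abcb6 0.47, and Slc48a1 0.27, with Hmox1 at the median and Fth1 at −0.33. With the libraries scaled to the same median height, 0 of the 5 reached 2-fold, against 11.3% of all genes, and Fth1 changed direction, at −0.20.

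Wild-type was at least 2-fold above Nrf2KO at Hmox1 and Ftl1, so at 2 of the 5 genes, and at 17.5% of all genes; with 5 genes nothing more is read from that share. These 2 stood at percentiles 95.4 and 91.9. Slc48a1 (48.8) and Fth1 (51.1) were near the middle, and Abcb6 stood at 27.3. The median log2 ratio was 0.18 for the 5 genes and 0.15 for all. With scaled libraries the same count of 2 was reached, against 13.2% of all genes. Slc48a1 then came to 0.00, and Hmox1 and Ftl1 were at 1.54 and 1.27.

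All 5 genes also met the 2-fold rule for Keap1KO over Nrf2KO, as did 83.3% of all genes, and the selection by Keap1KO calls enters here too. Ftl1 stood at percentile 96.3 and Hmox1 at 92.5, followed by Slc48a1 at 61.5, Abcb6 at 51.0 and Fth1 at 37.7. The median log2 ratio was 2.10 for the 5 genes and 1.83 for all. With scaled libraries Ftl1 and Hmox1 exceeded 2-fold, with log2 ratios of 2.09 and 1.60, and Fth1 changed direction, at −0.14. Of all genes, 19.4% met the 2-fold rule with scaled libraries. The 3 comparisons share libraries, so they are not separate evidence.

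**Figure D3:**
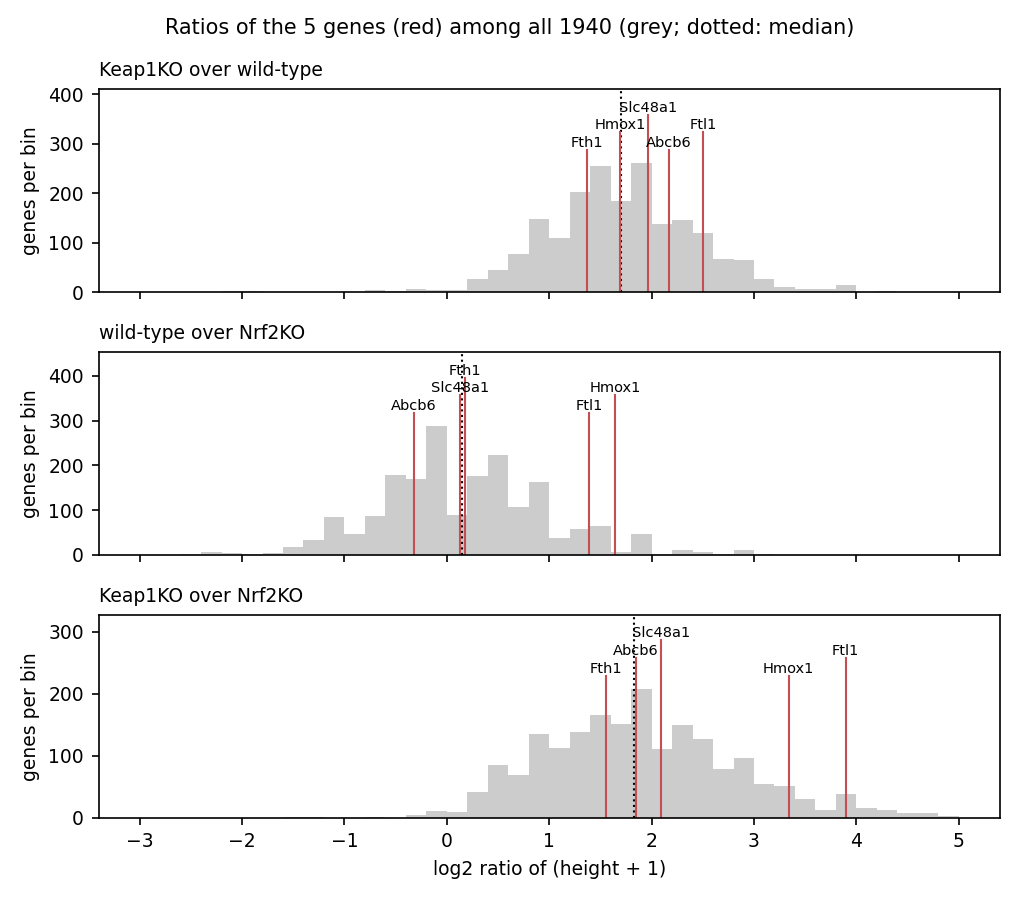
Log2 ratios of height + 1 for the 5 genes (red lines) over the distribution of all 1940 genes (grey, number of genes per bin of 0.2), for each pair of libraries; dotted lines are medians. In Keap1KO over wild-type the genes spread around the median from 1.37 to 2.50, while in both comparisons with Nrf2KO Hmox1 and Ftl1 lie on the right of the distribution.

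**Figure D4:**
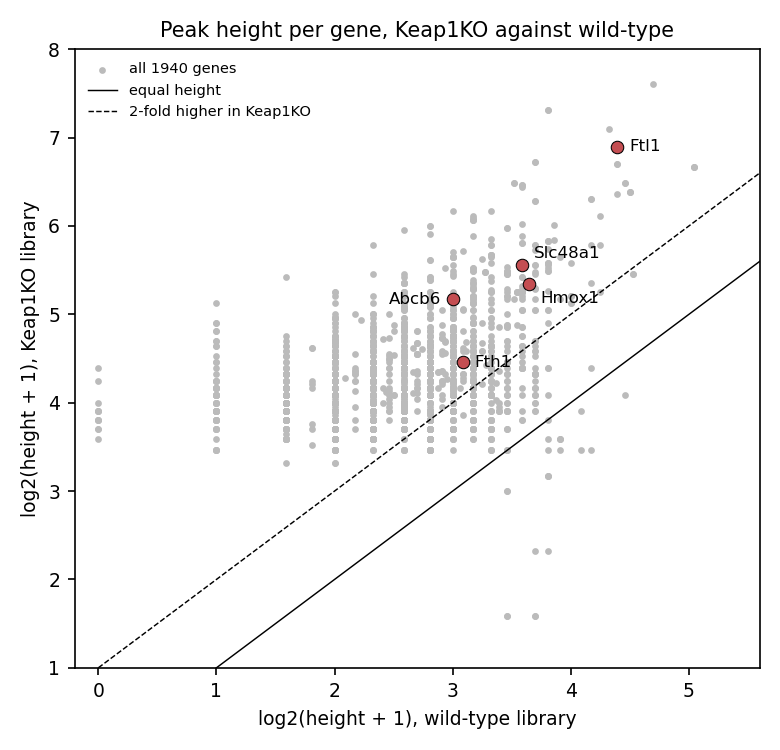
Height in Keap1KO against height in wild-type, both as log2(height + 1), for all 1940 genes (grey) and the 5 genes (red); the solid line marks equal height and the dashed line a 2-fold excess in Keap1KO. All 5 genes lie above the dashed line, Ftl1 near the top right with 20 and 118, and Fth1 closest to it with 7.50 and 21.

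Genes with the most similar heights were found by Euclidean distance of log2(height + 1) over the 3 libraries, as a description of 3 values each. Nearest to Ftl1 were Sh2d6 (19, 7 and 136 in wild-type, Nrf2KO and Keap1KO, distance 0.22), and AV051173 and Prdx1, a peroxiredoxin gene (both 20, 9 and 103, distance 0.38). Nearest to Hmox1 were 4930506M07Rik and Eno4 (both 10, 3 and 43, 0.22) and Mybpc1 (13, 3 and 45, 0.25). Slc48a1 was closest to Pde4d (0.14), 2810459M11Rik (0.30) and Mir23a (0.31), and Abcb6 to Ino80 (0.17), Gm19343 (0.20) and 9330162012Rik (0.22). Fth1, with its middling heights, was closest to Gtpbp5 and Ss18l1 (both 8, 7 and 21, 0.12) and to Pla2g6 (0.13).

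The wider heme and iron pathway was counted on 6 lists. Of their 55 genes, 8 had a row (14.5%), and 5 of these are the genes above. Of the other 50 genes, 3 had a row (6.00%), which is close to the 7.67% of all protein-coding genes of RefSeq. Heme synthesis had a row for 0 of 9 genes, among them Alas1, the rate-limiting enzyme, and Fech, which inserts the iron. Heme breakdown had 1 of 6, which was Hmox1, with no row for the biliverdin reductases Blvra and Blvrb. Heme transport had 3 of 14, iron storage 2 of 6, iron uptake, export and release 1 of 16, and iron and heme sensing 1 of 4. The counts for heme breakdown, heme transport and iron storage include the 5 genes above, which had a row by choice. Apart from these 5, only Lrp1 (heme transport) had a row on those lists. The exporter ferroportin (Slc40a1) and the transferrin receptor (Tfrc) had no row. A gene without a row is one with no listed interval, which gives no height.

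The 3 further genes with a row were Slc11a1, Lrp1 and Bach1. Slc11a1, a metal transporter of phagocyte endosomes, stood at 5, 4 and 37 in wild-type, Nrf2KO and Keap1KO, where its regions were 61 and 13. Keap1KO was 6.33-fold above wild-type there. One of its intervals, 1437 bp into the gene, is shared with Gm216, and the other lies downstream, 537 bp before the start of Ctdsp1. Bach1, the heme-sensing repressor, had 10.5, 10 and 35, with regions of 37 and 33 in Keap1KO, 1094 bp and 14134 bp into the gene. Lrp1, an endocytic receptor for hemopexin-bound heme, had 4, 8 and 13, at an interval 500 bp upstream. The 2-fold rule for Keap1KO over wild-type was met by all 3, against 86.4% of all genes, and that for wild-type over Nrf2KO by 0, against 17.5%. For Keap1KO over Nrf2KO it was met by 2 of the 3, against 83.3%, and Lrp1 was 1.56-fold higher there (log2 ratio 0.64). Counts over 3 genes near such shares are no result about them.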

How the data were processed

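Nrf2 ChIP-seq values came from 1 table of the whole series. The submitters' processing notes name BWA, MACS2 2.1.0 and the build mm10, without parameters. The authors deposited, per the file headers, an average peak height per gene and library (a signal of unstated unit), a flag for called intervals, the highest peak, and interval distances to gene starts.

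Heights of genes with 1 active region were whole numbers in 5043 of 5043 cases. The lower of 2 regions was computed as the sum (2 times the mean) minus the highest peak. In the 9 genes where both regions were also listed alone, this matched in 9. Interval positions were computed from gene start, strand and distance, and 1649 of 1727 fell on whole multiples of 16 bp.

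Ratios were computed in Python 3.11.15 (pandas 2.3.3) with a pseudocount of 1. The formulas were run on made-up values without noise, which checks the code and not the data. Percentiles are over all 1940 genes, ties counted at their midpoint. Neighbouring genes share intervals, so rows are not independent. Heights carry no counting interval, because library depth is not stated. Named genes were the 5, those sharing their intervals, the 3 most similar to each, and pathway genes with a row. Cbr3 was named after its values were seen. The genes and lists were chosen with earlier results of these data known. Alternatives were other pseudocounts, fold rules, scaling, a height filter, a stricter call, other motif letters and counting shared intervals once.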

Additional observations from a re-analysis of the deposited data

How the results depend on the processing

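No paired analysis was possible because there is only 1 library of each genotype. Of 97 values under an alternative, 2 changed sign, 26 moved (a ratio by over 1.5-fold, a share out of its 95% binomial interval, a count by over 1.5 times) and 69 did neither. Part of the 69 could not change. All 5 genes passed the filter on mean height, which alters no height, so their ratios and counts under it were fixed. A stricter wild-type call could not alter a count of 0. The 69 are therefore no measure of how stable the results are. Scaling the libraries to the same median height lowers the Keap1KO ratios by construction. For Keap1KO over wild-type it gave log2 ratios of 0.064 at Hmox1, 0.33 at Slc48a1, 0.55 at Abcb6, −0.20 at Fth1 and 0.82 at Ftl1, with 0 of the 5 genes and 11.3% of all genes at least 2-fold higher. For Keap1KO over Nrf2KO it gave 1.60, 0.33, 0.10, −0.14 and 2.09, with 2 of the 5 and 19.4% of all, and for wild-type over Nrf2KO 13.2% of all. A pseudocount of 5 shrinks ratios by construction. At Hmox1 it gave 2.48 for Keap1KO and 1.04 for wild-type over Nrf2KO, and shares of all genes of 70.4% in Keap1KO over wild-type, 70.8% in Keap1KO over Nrf2KO and 3.87% in wild-type over Nrf2KO. The filter on mean height left fewer genes, with 80.7% for Keap1KO and 13.8% for wild-type over Nrf2KO. With each set of intervals counted once, the shares were 88.0% for Keap1KO over wild-type and 85.4% over Nrf2KO. With a rule of 4-fold, 2 of the 5 genes were left in Keap1KO over wild-type, 3 in Keap1KO over Nrf2KO and 0 in wild-type over Nrf2KO. Shares of all genes under that rule, which is a log2 ratio of 2, were not computed. The upper quartiles of all genes in these comparisons were log2 ratios of 2.17, 2.49 and 0.68, so nothing is read from the counts. The looser motif letters were in 41.3% of promoter windows. Interval windows of other lengths were not run, since no genome was used here. Unknown depth limits every ratio between libraries.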
